A study of Mus musculus with 2 samples.

Results

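The 9 genes described here, Ooep, Khdc3, Nlrp5, Nlrp14, Tle6, Padi6, Npm2, Zar1 and Zbed3, encode components of the subcortical maternal complex or products of other maternal-effect genes. They were chosen by name, matched to the gene symbols, and are 9 of the 31057 genes counted. The data are single-cell RNA sequencing counts from whole, untreated ovaries of CD1 mice, an outbred stock, on postnatal day 2. Ovaries of several pups of a single female were pooled into each of 2 libraries, replicate 1 and replicate 2, so neither library resolves single animals. Both libraries belong to the same group, and the comparisons below are between classes of cells within them.

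Maternal-effect genes are transcribed in the oocyte, and their products are needed by the embryo before its own genome takes over. Proteins of the subcortical maternal complex gather beneath the membrane of the oocyte, and loss of several of them in the mother stops the embryo early in cleavage. Around birth, mouse oocytes are enclosed in primordial follicles, and a first cohort starts to grow while the others stay dormant. Zp3, a zona pellucida gene, is switched on strongly as an oocyte grows. The question asked of the 9 genes was which of them already had transcripts in germ cells with little or no Zp3.

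Promoter sequences are shown for 3 genes that differed in that respect: Ooep, which was abundant also where Zp3 was not detected, and Khdc3 and Zar1, which were scarce there. Each line gives the 250 bases before the RefSeq transcription start in GRCm38.p6, read 5′ to 3′ on the strand of the gene, with every E-box (CANNTG, the motif of basic helix-loop-helix factors such as FIGLA) in capitals.
Ooep: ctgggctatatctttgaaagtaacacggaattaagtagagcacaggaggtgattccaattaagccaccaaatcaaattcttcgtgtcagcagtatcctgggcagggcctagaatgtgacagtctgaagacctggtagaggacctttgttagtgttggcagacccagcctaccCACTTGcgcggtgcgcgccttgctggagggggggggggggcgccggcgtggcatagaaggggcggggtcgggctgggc
Khdc3: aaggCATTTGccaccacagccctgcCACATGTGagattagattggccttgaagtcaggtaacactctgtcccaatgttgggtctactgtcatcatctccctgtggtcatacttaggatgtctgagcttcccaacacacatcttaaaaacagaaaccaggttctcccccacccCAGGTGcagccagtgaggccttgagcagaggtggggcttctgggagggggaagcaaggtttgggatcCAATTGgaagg
Zar1: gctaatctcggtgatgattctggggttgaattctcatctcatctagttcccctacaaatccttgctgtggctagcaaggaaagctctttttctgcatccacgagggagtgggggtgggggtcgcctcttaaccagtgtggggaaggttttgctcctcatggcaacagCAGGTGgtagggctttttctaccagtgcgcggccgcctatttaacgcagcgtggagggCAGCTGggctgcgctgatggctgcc
The windows are chr9:78378589-78378838 on the minus strand for Ooep, chr9:73102148-73102397 on the plus strand for Khdc3 and chr5:72581085-72581334 on the minus strand for Zar1. In each case the GENCODE gene span begins further upstream than the RefSeq start, so that it covers part or all of the window. The window of Ooep held 1 E-box, that of Khdc3 held 5, of which 2 overlap, and that of Zar1 held 2. An E-box occurred in 66.2% of all 32851 promoter windows of this length, so its presence is common. The narrower form CAGGTG or its reverse complement CACCTG, found in 17.2% of all windows, occurred once each in the windows of Khdc3, Zar1 and Padi6 and in 2 of the 3 windows of Zbed3, and not in those of Ooep, Nlrp5 and Tle6. In those 2 windows of Zbed3 the bases after the start were not found near the start of an annotated transcript. In the remaining window of Zbed3 they were. The narrower form was thus present in Khdc3 and Zar1, which were scarce in cells without Zp3. It was also present in Padi6, abundant there in replicate 2, and in those windows of Zbed3. The homeobox core TAATTA or TAATTG, read on both strands and found in 11.3% of all windows, occurred once in the window of Ooep and once in 1 of the 2 windows of Nlrp5, and in none of the windows of the other 5 genes. TGATTG, a motif reported for LHX8, was also read on both strands and found in 12.7% of all windows. It occurred 2 times in 1 window of Tle6 and once in the remaining window of Zbed3, and in none of the windows of the other 5 genes. RefSeq promoters were matched for 7 of the 9 genes. Npm2 and Nlrp14, which were also scarce in cells without Zp3, had no matched window. The motif matches describe letters and not bound sites.

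The 2 libraries held 4094 and 4847 barcodes called as cells with 54471790 and 59074480 UMIs, the molecular tags that count each captured RNA molecule once. After a filter on genes and mitochondrial counts and the removal of likely doublets, 3636 and 4371 cells were kept, and 21 barcodes occurred in both libraries. A cell was called a germ cell when at least 3 of the germ cell genes Ddx4, Dazl, Figla, Ooep, Sohlh1 and Sycp3 were detected and made up at least 0.1% of its UMIs. This held for 235 cells of replicate 1 (6.46%, 95% exact binomial interval 5.69 to 7.31, counting error only) and 693 cells of replicate 2 (15.9%, 14.8 to 17.0). The median germ cell had 76739 and 46157 UMIs, against 8362 and 5778 in the remaining, somatic cells. Since Ooep is part of the gate, its level in germ against somatic cells follows in part from how the cells were chosen. For Nlrp5, which is no gate gene, the values on either side of the gate were as follows. In replicate 2, the 71 germ cells with exactly 3 gate genes had 1044 CPM of Nlrp5 (UMIs per 1000000 UMIs of these cells). The 66 cells kept out of the germ cells with 2 gate genes had 740. The 71 cells kept out because gate genes made up under 0.1% of UMIs had 39.2. Both sets kept out were counted as somatic cells. The 66 cells held 56 of the 431 UMIs of Nlrp5 in somatic cells of replicate 2. Whether they are germ cells was not tested, so the somatic levels below may include missed germ cells.

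Germ cells were split into 3 classes. RNA-poor cells had under 20000 UMIs (26 and 262 cells in replicates 1 and 2), and whether they are a class of intact cells or damaged cells was not tested. RNA-rich cells were called Zp3-low under 500 CPM of Zp3 (54 and 210 cells) and Zp3-high from 500 upwards (155 and 221 cells). Few cells lay near the first boundary (7 and 24 between 15000 and 25000 UMIs), whereas 23 of 209 and 46 of 431 RNA-rich cells had between 400 and 600 CPM of Zp3, so the second boundary cuts a continuous range. Levels below are CPM from the UMIs summed over the cells of a class in a library. As only the 3′ end of a molecule is tagged, they were not divided by transcript length.

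Together, the 9 genes gave 0.418% and 0.550% of all UMIs of Zp3-low cells and 0.924% and 1.03% of those of Zp3-high cells, against 0.0136% and 0.0172% in somatic cells. Transcripts of all 9 were present in Zp3-low cells, but in very different proportion to their level in Zp3-high cells. Zp3-low cells had between 70.5% and 80.1% of the Zp3-high level of Nlrp5, Tle6 and Zbed3 in either library, between 36.2% and 49.6% of Ooep and Padi6, between 22.6% and 38.7% of Khdc3 and Nlrp14, between 12.9% and 16.5% of Npm2, and 3.48% and 8.17% of Zar1.

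**Figure D1:**
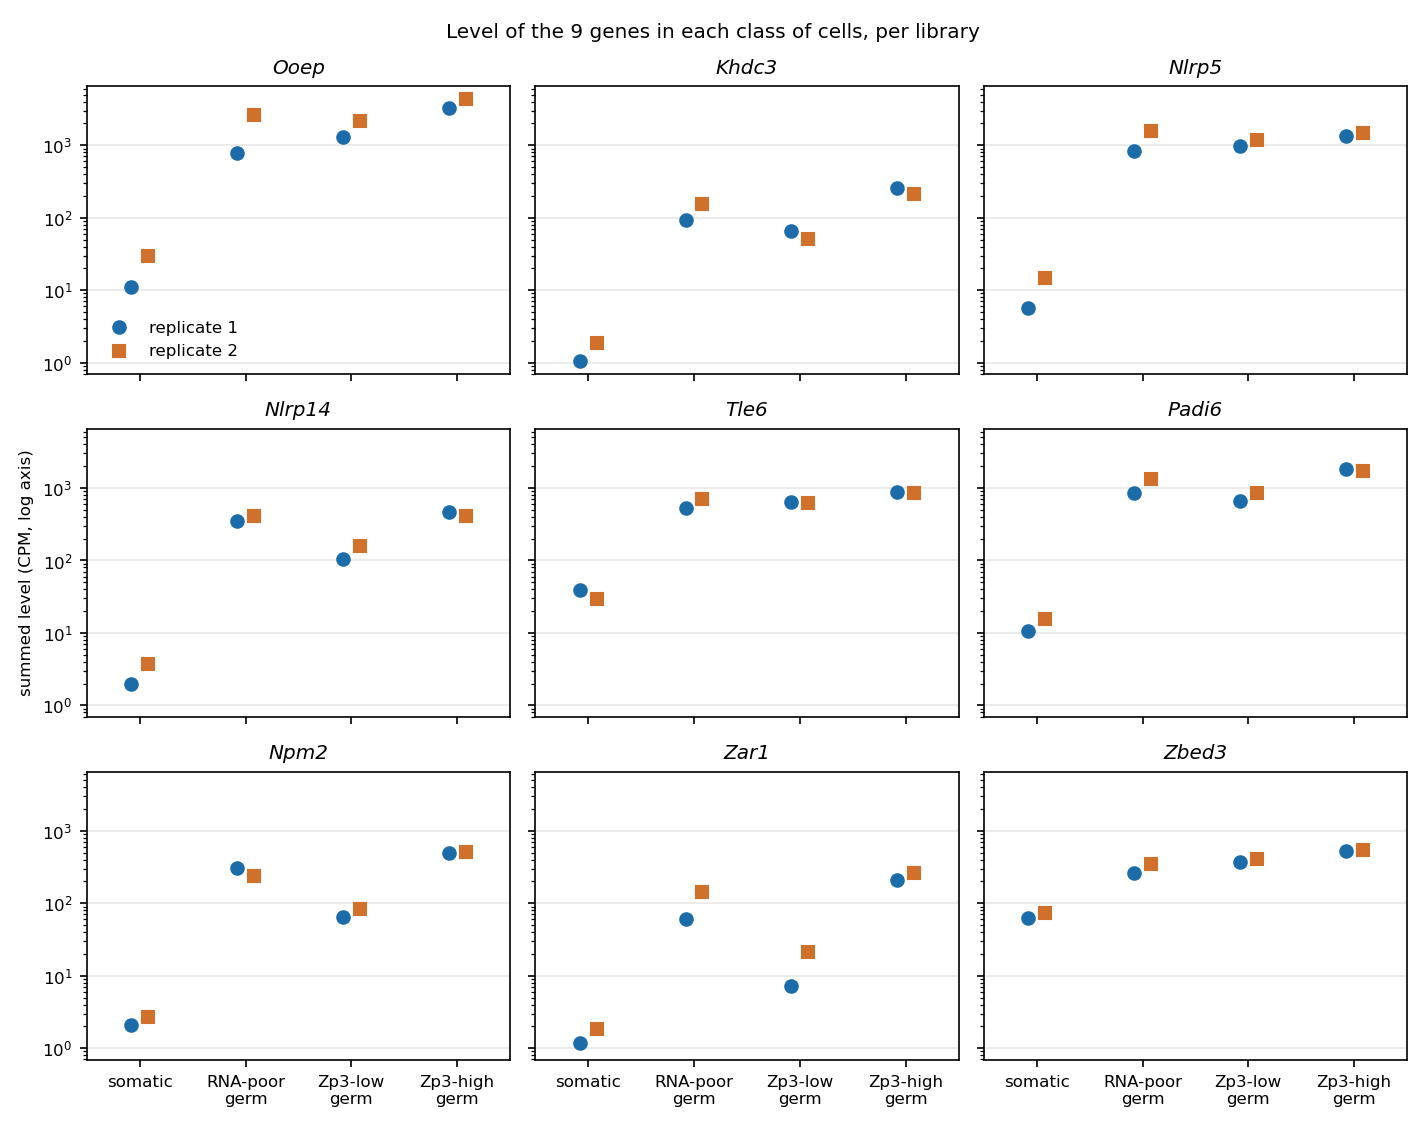
Summed level of each gene in CPM on a log axis (vertical) in somatic cells and the 3 germ cell classes (horizontal), with a point for each library. The step from Zp3-low to Zp3-high cells is widest for Zar1 (7.24 and 21.2 to 208 and 259) and narrow for Nlrp5, Tle6 and Zbed3.

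Transcripts of the scaffold of the subcortical maternal complex were abundant also where Zp3 was low. Ooep, a KH domain protein needed to assemble the complex (chromosome 9, 78376109 to 78378725, minus strand, GRCm38), had 1287 and 2141 CPM in Zp3-low cells of replicates 1 and 2 and 3214 and 4327 in Zp3-high cells. The classes did not overlap, but the libraries themselves differed, replicate 2 being higher in both. On the log2 scale Zp3-high cells exceeded Zp3-low cells by 1.17 ± 0.47 (standard error, as for the other genes below, adjusted p = 0.345, edgeR's quasi-likelihood test), and by 1.22 ± 0.17 (adjusted p = 5.93e-05) once the library was fitted as a block. Nlrp5, also known as Mater, a large leucine-rich repeat protein of the same complex (chromosome 7, 23385889 to 23441922, plus strand), had 971 and 1176 CPM in Zp3-low cells and 1358 and 1468 CPM in Zp3-high cells. Its difference in CPM was small, with a log2 fold change of 0.43 (SE 0.25, adjusted p = 0.516, and 0.0312 with the block). Tle6, a member of the Groucho family of co-repressors that binds the complex (chromosome 10, 81590904 to 81601073, minus strand), had 649 and 617 CPM in Zp3-low and 884 and 855 CPM in Zp3-high cells. Its log2 fold change of 0.50 (SE 0.13, adjusted p = 0.178) passed the threshold with the block (adjusted p = 0.00745).

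Khdc3, also known as Filia, a KH domain partner of Ooep on the same chromosome (chromosome 9, 73101836 to 73104438, plus strand), was the scarce member of the complex. It had 66.1 and 51.6 CPM in Zp3-low cells and rose to 258 and 209 CPM in Zp3-high cells. Both libraries gave nearly the same change, and the log2 fold change was 2.04 (SE 0.20, adjusted p = 0.0112). The Khdc3 gene overlaps the annotated gene Gm20509 on the same strand, so the assignment of its reads is less certain. Zbed3, a zinc finger protein that joins the complex (chromosome 13, 95323612 to 95337841, plus strand), had 372 and 408 CPM in Zp3-low and 527 and 537 CPM in Zp3-high cells. The log2 fold change of Zbed3 was 0.49 (SE 0.14, adjusted p = 0.203, and 0.00625 with the block).

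Padi6 and Nlrp14 are maternal-effect genes that act beside the complex. Padi6, a peptidylarginine deiminase family member needed to form the cytoplasmic lattices of the oocyte (chromosome 4, 140727355 to 140742643, minus strand), had 661 and 848 CPM in Zp3-low and 1826 and 1710 CPM in Zp3-high cells. With a log2 fold change of 1.26 (SE 0.20) it just missed the threshold without the block (adjusted p = 0.053) and passed it with the block (adjusted p = 1.86e-06). Nlrp14, a relative of Nlrp5 also on chromosome 7 (107166990 to 107198102, plus strand), rose from 105 and 157 CPM to 466 and 407 CPM. Its log2 fold change was 1.76 (SE 0.20, adjusted p = 0.0162), and the change was greater in replicate 1 (4.43-fold) than in replicate 2 (2.59-fold).

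Npm2 and Zar1 had the smallest share of their Zp3-high level in Zp3-low cells. Npm2, nucleoplasmin, a histone chaperone that remodels chromatin in the egg and zygote (chromosome 14, 70647302 to 70659244, minus strand), had 64.2 and 83.6 CPM in Zp3-low cells. It rose to 497 and 507 CPM in Zp3-high cells, a log2 fold change of 2.79 (SE 0.19, adjusted p = 0.0026). Npm2 overlaps Xpo7 on the same strand, which leaves some of its reads uncertain. Zar1, an RNA-binding protein that holds maternal transcripts in store (chromosome 5, 72576806 to 72581254, minus strand), had 7.24 and 21.2 CPM in Zp3-low cells, from 23 and 236 UMIs in all. In Zp3-high cells it had 208 and 259 CPM, and its log2 fold change of 3.93 (SE 0.44, adjusted p = 0.0154) was greater in replicate 1 (28.7-fold) than in replicate 2 (12.2-fold).

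In all, 4 of the 9 genes were called higher in Zp3-high cells (Khdc3, Nlrp14, Npm2 and Zar1), and none lower, where 0.493% of the 12784 genes tested were called higher and 0.0469% lower. With the library as a block 9 of 9 were called higher, where the shares over all genes were 10.4% higher and 6.86% lower. Whether the changes of the 9 genes differ from one another was not tested. The classes also differed in depth, with median UMIs of 60112 and 54276 per Zp3-low cell and 85859 and 70587 per Zp3-high cell. Counted as UMIs per cell and not as CPM, the differences were therefore larger. They were 2.01-fold and 1.64-fold for Nlrp5, 1.96-fold and 1.82-fold for Tle6 and 2.04-fold and 1.73-fold for Zbed3. The median mitochondrial share differed as well (3.10% and 3.23% against 2.31% and 2.49%). In cells of 50000 to 80000 UMIs alone, a limit set after the data were seen, the 9 log2 fold changes stayed positive, at 2.80 for Zar1, 2.26 for Npm2, 1.22 for Nlrp14 and 1.13 for Khdc3, but 0 of the 9 were called (1 gene was called higher in all).

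**Figure D2:**
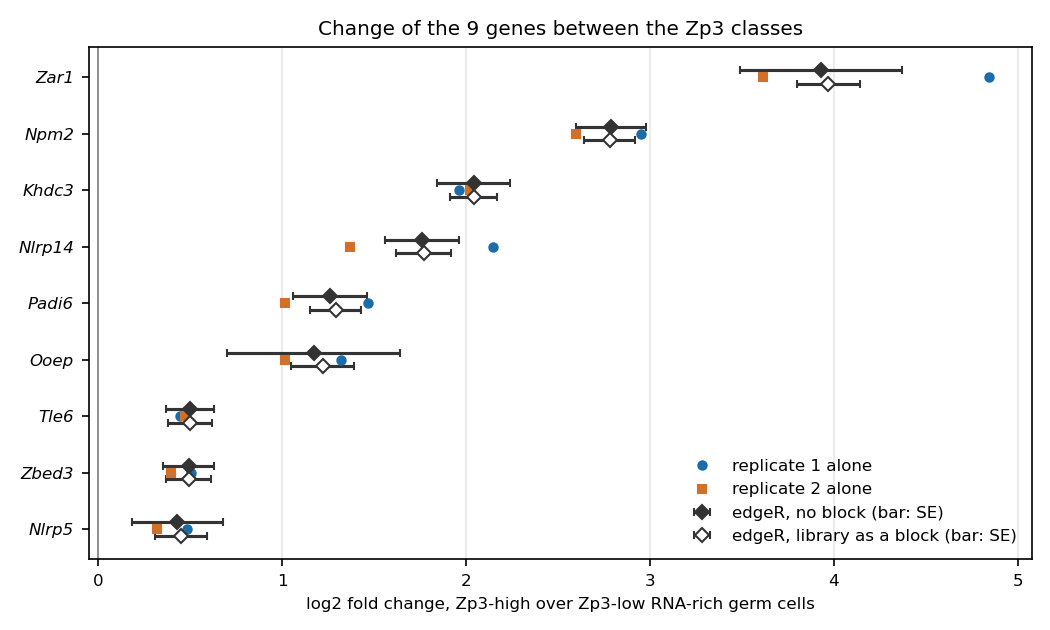
Log2 fold change of Zp3-high over Zp3-low RNA-rich germ cells (horizontal) for each gene (vertical), with points for each library alone and diamonds with standard errors for the edgeR fits without and with the library as a block. All points lie above 0, from 0.43 for Nlrp5 to 3.93 for Zar1 in the fit without the block.

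A finer division by Zp3 gave the level of each gene where Zp3 was lowest. In the 28 RNA-rich cells of replicate 2 with 0 UMIs of Zp3, Ooep had 1282 CPM, Nlrp5 had 1016, Tle6 had 513, Padi6 had 428 and Zbed3 had 377. In the same cells Nlrp14 had 38.1 CPM, Khdc3 had 19.0, Npm2 had 8.28 and Zar1 had 1.66. The values of Npm2 and Zar1 rest on 10 and 2 UMIs, and that of Zar1 is no higher than the 1.82 CPM in somatic cells of the same library. Per cell, Zar1 had 0.0714 UMIs in these germ cells and 0.0144 in the somatic cells, which are shallower. Whether the 2 UMIs are background was not tested. As a share of their level in cells with 1000 or more CPM of Zp3, Nlrp5 stood at 62.0%, Zbed3 at 58.5%, Tle6 at 50.7%, Ooep at 24.9%, Padi6 at 19.7%, Nlrp14 at 7.09%, Khdc3 at 5.93%, Npm2 at 1.12% and Zar1 at 0.385%. Replicate 1 had only 4 cells without Zp3, in which Ooep had 588 CPM, Nlrp5 had 899.5, Tle6 had 352 and Zbed3 had 250.2, while Khdc3, Npm2 and Zar1 had 0 UMIs. Padi6 had 60.9 CPM there, from 9 UMIs, which is 2.90% of its level at 1000 or more CPM of Zp3, and Nlrp14 had 13.5 CPM from 2 UMIs, so that Padi6 stood with the scarce genes in replicate 1 and not in replicate 2. Because the cells share libraries and their Zp3 counts were used to order them, these levels are given without a test.

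For Khdc3, Nlrp14, Npm2 and Zar1 the greater part of the rise fell in the last step. The same held for Zp3 itself, which sets the groups, and the last group has no upper limit. Over this step Zp3 went from 770 and 712 CPM to 1869 and 1686 CPM. Between cells of 500 to under 1000 and cells of 1000 or more CPM of Zp3, Zar1 went from 36.5 and 96.6 CPM to 284 and 430 CPM. Over the same step Khdc3 went from 115 and 102 CPM to 321 and 321 CPM, and Npm2 from 217 and 283 CPM to 622 and 741 CPM. Nlrp14 went from 247 and 282 CPM to 564 and 537 CPM. The greater part of the rise of Nlrp5 also fell in this step, with a smaller change relative to its level, from 1151 and 1304 CPM to 1450 and 1638 CPM.

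**Figure D3:**
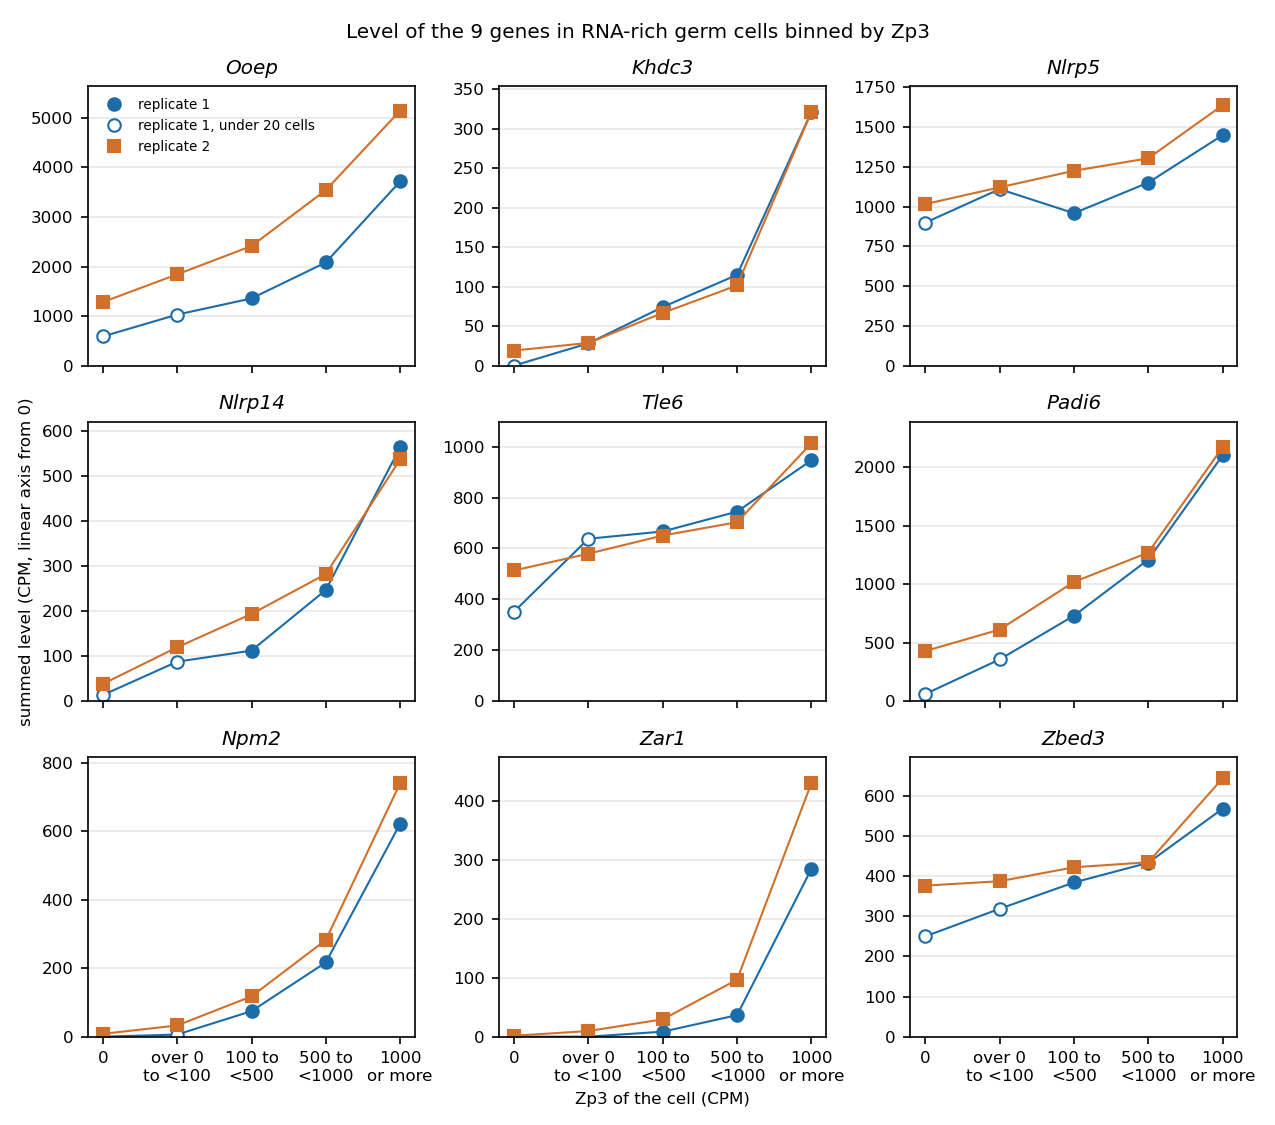
Summed level of each gene in CPM (vertical, linear from 0) in RNA-rich germ cells grouped by their Zp3 in CPM (horizontal), with a line for each library and open points for groups of under 20 cells. Nlrp5, Tle6 and Zbed3 start well above 0, whereas Npm2 and Zar1 start near 0 and climb mainly in the last group.

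At equal depth, the share of cells with a transcript differed between the Zp3 classes for Zar1, Npm2, Khdc3 and Nlrp14. With every RNA-rich cell thinned to 20000 UMIs, Ooep, Nlrp5, Tle6, Padi6 and Zbed3 were detected in at least 98.1% of Zp3-low cells of either library. Zar1 was detected in 16.7% and 25.2% of Zp3-low cells (exact 95% intervals 7.92 to 29.3 and 19.5 to 31.7), against 67.1% and 82.4% of Zp3-high cells (59.1 to 74.4 and 76.7 to 87.1). Npm2 was detected in 33.3% and 49.0% of Zp3-low and 89.7% and 94.6% of Zp3-high cells, Khdc3 in 55.6% and 51.9% against 91.6% and 87.3%, and Nlrp14 in 70.4% and 79.0% against 99.4% and 99.1%. All 9 transcripts were seen together in 5.56% and 8.57% of Zp3-low cells and in 59.4% and 69.7% of Zp3-high cells. Without thinning these shares were 20.4% and 28.1% against 84.5% and 93.2%.

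At 2000 UMIs per cell, the depth that nearly all cells reach (7 and 80 germ and 32 and 185 somatic cells were shallower and left out), 5 or more of the 9 genes were detected in 31.5% and 40.0% of Zp3-low cells, 79.4% and 78.7% of Zp3-high cells and 0% and 0.0859% of somatic cells. Zar1 then had a UMI in 0 of 54 Zp3-low cells of replicate 1, which allows a share of cells with a UMI at this depth of up to 5.56%, and in 6.19% of those of replicate 2. At 20000 UMIs the same cells of replicate 1 gave the 16.7% above, so the 0 is a limit of depth and does not show absence. The shares in somatic cells were at most 0.297% for Zar1 and 0.229% for Khdc3, and were 2.61% and 5.04% for Ooep. They were 6.71% and 4.84% for Tle6 and 11.4% and 13.1% for Zbed3. What part of these shares comes from free RNA in the droplets, or from germ cells that missed the gate, was not tested.

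**Figure D4:**
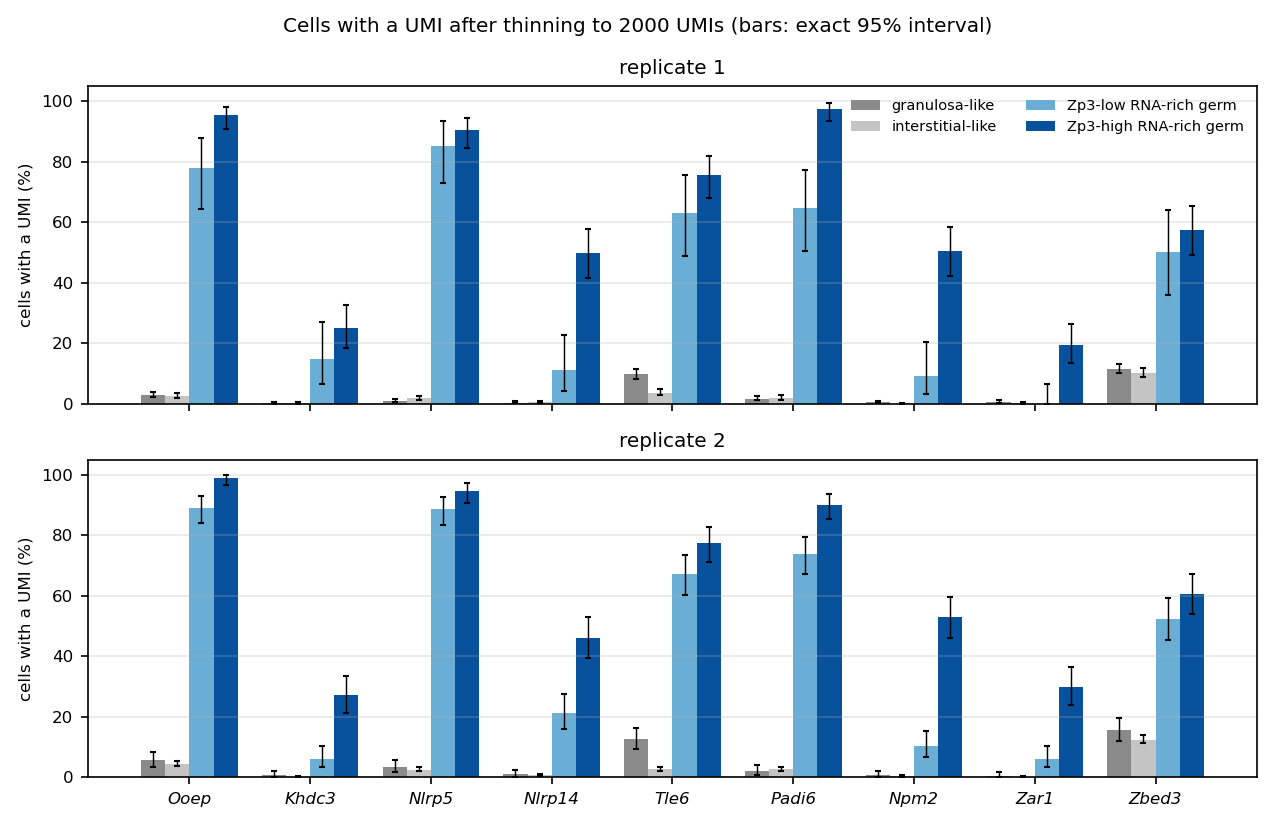
Percent of cells with at least 1 UMI of each gene (vertical) after thinning each cell to 2000 UMIs, for granulosa-like, interstitial-like, Zp3-low and Zp3-high cells, with exact 95% binomial intervals as bars and a panel for each library. Zbed3 and, in granulosa-like cells, Tle6 stand above the other genes in somatic cells.

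Within RNA-rich germ cells, the 9 genes were positively correlated with one another. Values over pairs of other genes are not given here, so the size is not set against a background. Over the 36 pairs of genes, the Pearson correlation across cells thinned to 20000 UMIs ranged from 0.309 to 0.707 in replicate 1 (209 cells, median 0.476) and from 0.275 to 0.664 in replicate 2 (431 cells, median 0.447). With Zp3, Padi6 gave 0.811 and 0.709, Npm2 gave 0.725 and 0.745, and Nlrp14 gave 0.744 and 0.704, against 0.415 and 0.409 for Tle6, 0.405 and 0.322 for Zbed3 and 0.436 and 0.355 for Nlrp5. Among 3142 genes with at least 1 UMI per cell on average, those most like the sum of the 9 in the weaker library were Zp2 (0.780 and 0.786), Zp3 (0.807 and 0.741), Dppa5a (0.765 and 0.727), Zp1 (0.718 and 0.678) and Oas1d (0.663 and 0.659). Zp1, Zp2 and Zp3 encode zona pellucida proteins, and Dppa5a encodes a KH domain protein. The sum gives most weight to Ooep, which held 34.8% and 42.1% of the UMIs of the 9 in Zp3-high cells. These cells share a library, so the values describe it and carry no test.

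In the RNA-poor germ cells some of the 9 genes were lower than in Zp3-low cells and others higher. Ooep had 787 and 2601 CPM in them, Nlrp5 had 820 and 1573, Padi6 had 861 and 1332, Tle6 had 538 and 704 and Zbed3 had 262 and 345 CPM. Npm2 had 303 and 235 CPM, Nlrp14 had 350 and 409, Zar1 had 60.5 and 144, and Khdc3 had 94.1 and 157 CPM. Npm2, Nlrp14, Zar1, Khdc3 and Padi6 were thus lower in Zp3-low than in RNA-poor cells of both libraries. Zbed3 was higher in Zp3-low cells of both libraries, and Ooep, Nlrp5 and Tle6 were higher in Zp3-low cells of replicate 1 and lower in those of replicate 2. Ooep is part of the gate, and a gate without it left 25 and 190 RNA-poor cells and 53 and 209 Zp3-low cells. The level of Ooep in RNA-poor cells, and its test here, thus follow in part from how the cells were chosen. For Zp3-low against RNA-poor cells, 0 of the 9 genes and 0% of all 12784 genes were called in either direction by edgeR's quasi-likelihood test (1964 genes had an unadjusted p under 0.05, and DESeq2 called 44 higher and 104 lower). With the library as a block, 5 of the 9 were called lower in Zp3-low cells, where 4.02% of all genes were (and 3.11% higher): Zar1 (log2 fold change -2.79), Npm2 (-1.65), Nlrp14 (-1.46), Khdc3 (-1.32) and Padi6 (-0.50). In replicates 1 and 2 alone these were -3.06 and -2.77 for Zar1, -2.24 and -1.49 for Npm2, and -1.73 and -1.38 for Nlrp14. For Khdc3 they were -0.51 and -1.60, and for Padi6 -0.38 and -0.65. The RNA-poor level of Khdc3 in replicate 1 rests on 14 UMIs.

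The RNA-poor cells were mixed in Zp3. They had medians of 3684 and 2962 UMIs and of 0.697% and 0.861% mitochondrial counts, and 13 of 26 and 103 of 262 of them had 500 or more CPM of Zp3. In those, Ooep had 1488 and 4067 CPM and Zar1 had 165 and 329, against 448 and 1620 CPM of Ooep and 9.97 and 20.7 of Zar1 in the RNA-poor cells below that level. When only the latter entered the comparison, an alternative chosen after the data were seen, the log2 fold change of Zp3-low over RNA-poor cells was -0.21 for Zar1, -0.16 for Npm2, -0.35 for Nlrp14 and -0.29 for Khdc3. It was above 0 for the other 5, at 0.85 for Zbed3, 0.71 for Ooep, 0.45 for Tle6, 0.32 for Nlrp5 and 0.29 for Padi6, and 0 of the 9 genes were called. The share of all genes called in this alternative is not given here, so the 0 is not read as a result about the 9 genes. A list of 42 somatic and blood cell markers summed to 12211 and 1217 CPM in RNA-poor cells, with 17 and 6 markers at 0, against 141 and 308 CPM in Zp3-low and 87.2 and 260 CPM in Zp3-high cells. In replicate 1 much of this was haemoglobin, with 5601 CPM of Hbb-bs from 3 cells. The part of these markers in the levels of the 9 genes was not tested.

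Compared with somatic cells, every gene that could be tested was higher in germ cells. Of 8 genes, 8 were called (log2 fold change over 1 and adjusted p under 0.05), where 29.6% of 16146 genes were called higher. With the library as a block 8 were called again, where the share over all genes was 29.2%. The log2 fold changes were 7.35 for Npm2, 7.08 for Nlrp5, 7.04 for Khdc3 and Nlrp14, 6.89 for Padi6, 6.85 for Zar1, 4.63 for Tle6 and 2.92 for Zbed3, with adjusted p between 0.000501 and 0.00115. Ooep differed by 7.31, which its place in the gate fixes in part. With a gate of the other 5 germ cell genes its log2 fold change was 6.91 (SE 0.79, adjusted p = 0.00208).

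Zbed3 and Tle6 had a higher somatic level, relative to germ cells, than the other 7 genes and than a set of other oocyte genes. As a percentage of the germ cell level, the somatic level of 10 oocyte genes ranged from 0.372 to 1.06 in replicate 1 and from 0.720 to 2.15 in replicate 2. Of these, Ddx4, Dazl, Figla, Sohlh1 and Sycp3 belong to the gate, which lowers their somatic level by construction, as it does for Ooep. The 5 others, Zp3, Zp2, Gdf9, Dppa3 and Oosp1, ranged from 0.372 to 1.06 and from 0.720 to 1.94, with Oosp1 highest in either library, from 2 somatic UMIs in each, and the other 4 up to 0.562 and 1.23. Ooep, Khdc3, Nlrp5, Nlrp14, Padi6, Npm2 and Zar1 ranged from 0.398 to 0.706 and from 0.824 to 1.32. Tle6 stood at 4.66 and 3.86, and Zbed3 at 12.8 and 15.2, both above every one of the 10 genes in either library.

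**Figure D5:**
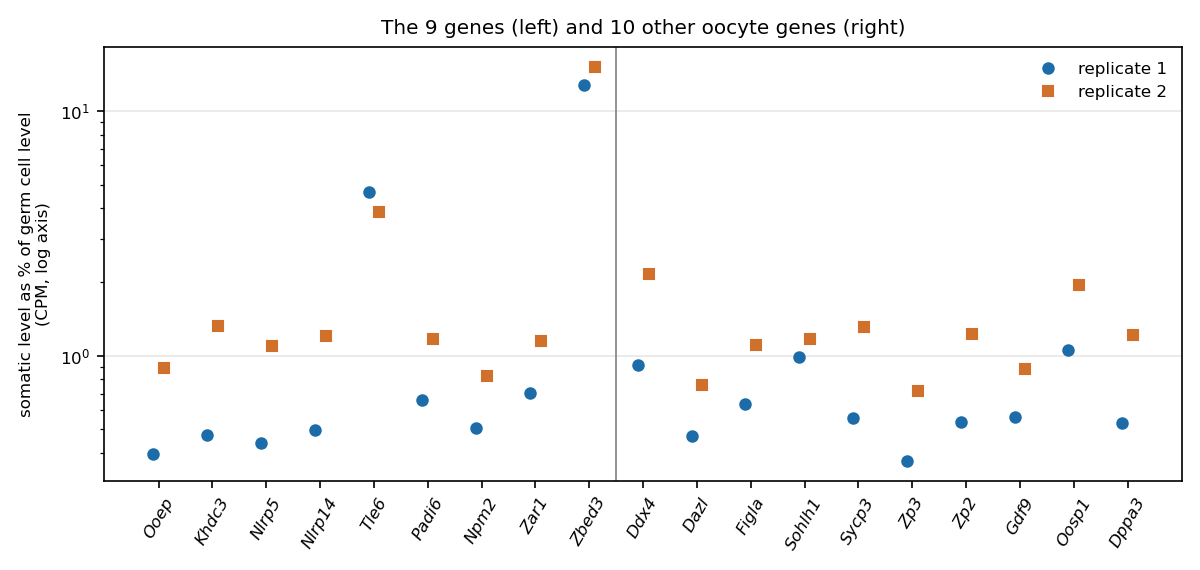
Somatic level as a percentage of the germ cell level, both in CPM, on a log axis (vertical) for the 9 genes and, right of the line, 10 other oocyte genes (horizontal), with a point for each library. Zbed3 (12.8 and 15.2) and Tle6 (4.66 and 3.86) lie above all the others.

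Somatic Tle6 was uneven between cell types. Granulosa-like cells, the follicle cells around the oocyte, had 51.0 and 53.5 CPM of Tle6, and interstitial-like cells had 19.0 and 14.5 CPM. Mesothelial-like cells lay between them, with 32.1 and 30.4 CPM. After thinning to 2000 UMIs, Tle6 was detected in 9.76% and 12.6% of granulosa-like cells (exact 95% intervals 8.33 to 11.3 and 9.44 to 16.3) and in 3.67% and 2.77% of interstitial-like cells (2.74 to 4.80 and 2.16 to 3.50). The intervals of these 2 cell types were apart in both libraries, and the difference was not tested over the libraries. In mesothelial-like cells the shares were 5.41% and 8.63% (2.62 to 9.72 and 5.61 to 12.6). These intervals overlapped those of granulosa-like cells in both libraries. Among the named clusters of somatic cells, Tle6 was highest in a granulosa-like cluster led by Wfdc10 and Colec11, at 69.0 and 70.2 CPM. For comparison, Ooep had 11.3 and 27.0 CPM in granulosa-like and 11.7 and 23.7 CPM in interstitial-like cells.

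Zbed3, by contrast, was spread over the somatic cell types, with 63.8 and 75.2 CPM in granulosa-like, 58.0 and 69.8 CPM in interstitial-like and 65.4 and 74.9 CPM in mesothelial-like cells. Within the interstitial-like cells it was highest in a cluster led by the mitotic genes Ccnb1 and Cenpa, where it had 129 and 165 CPM. The other interstitial-like clusters had 41.7 to 55.1 and 45.8 to 76.8 CPM. Among these, a cluster led by the cell cycle genes Pclaf and Rrm2 had 55.1 and 54.1 CPM. The cluster led by Ccnb1 and Cenpa held 133 and 213 cells. Neither Zbed3 nor any other of the 9 genes was used to form the clusters, whose levels are given without a test. An unnamed cluster of 16 and 107 cells with a median of 687 UMIs and immune genes in the lead carried 468 and 509 CPM of Tle6 and 303 and 816 CPM of Nlrp5. It also had 1515 and 678 CPM of Padi6 and 0 and 1399 CPM of Ooep, and Nlrp5 was among its leading genes. In replicate 2 it held 77 of the 431 UMIs of Nlrp5 in somatic cells. Whether it includes missed germ cells was not tested. Leaving unnamed clusters out of the somatic cells left all 8 calls in place. The share of all genes called without these clusters is not given here, so this is not read as a result about the 8 genes.

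Other oocyte gene lists gave a measure of how common such changes were. Between Zp3-high and Zp3-low cells, the median log2 fold change was 1.26 over the 9 genes and -0.0020 over all genes. It was 1.86 over the other KH domain genes, 1.43 over the growth genes and 1.14 over the other NLRP genes, so the 9 did not stand apart from these lists by their median, and it was 0.38 over genes of RNA storage and turnover, 0.37 over genes of maternal chromatin and -0.02 over early germ cell and meiosis genes. Of 6 other NLRP family genes tested, 0 passed the threshold, and 3 did with the block, led by Nlrp4a (2.66). Of 4 other KH domain genes, 0 passed, and 4 did with the block, led by Khdc1b (2.25). Of 8 genes of RNA storage and turnover, 1 rose, the translation initiation factor Eif4e1b (3.77), and 5 with the block. Of 11 genes of maternal chromatin, 1 rose, the oocyte linker histone gene H1foo (1.65), and 6 with the block, among them Dnmt1 (1.26). Of 5 growth genes other than Zp3, 3 rose: Zp1 (2.20), Gdf9 (1.13) and Oosp1. With the block 4 did, among them Zp2 (1.48). Oosp1 had 89 and 94 UMIs in Zp3-high and 1 and 0 UMIs in Zp3-low cells. Its direction was therefore set once it passed the low count filter. Of 8 early germ cell and meiosis genes 0 passed, and with the block Nobox was higher (0.43) and Sycp1, of the synaptonemal complex, was lower (-0.74).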

How the data were processed

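Single-cell RNA sequencing of P2 ovaries was done in 2 libraries on the 10x Genomics Chromium system. The labels give the 3′ reagent kit as version 2 and the study's methods as version 3. Which is right could not be told from the counts. The authors deposited UMI counts per gene and cell, whole numbers without normalization, for the barcodes that Cell Ranger 3.0.2 called as cells, and per the submitters' processing notes the reads were aligned to GRCm38. Gene positions were taken from GENCODE M21 by Ensembl identifier and promoters from RefSeq.

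The 9 genes, the cell classes and the other gene lists were chosen with earlier results of these data known. Cells were kept from 500 genes upwards and up to 10% mitochondrial counts. Doublets were scored with Scrublet in scanpy 1.11.5 at an expected share of 0.05, and the automatic threshold of replicate 1 (0.224) was used for both libraries, because that of replicate 2 (0.519) marked 2 cells, a choice made with the scores in view. The numbers of cells removed were 356 and 383 by the filter and 102 and 93 as doublets. Somatic cells were clustered (Leiden, resolution 1, 30 principal components, 15 neighbours) without the 9 genes and the gate genes, which gave 21 clusters, named from marker lists.

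UMIs were summed per library and class and tested in R 4.3.3 by the quasi-likelihood functions of edgeR 4.0.16 (glmQLFit, glmQLFTest) after filterByExpr and TMM scaling (Benjamini-Hochberg adjustment over all genes tested). One fit covered the 3 germ cell classes and another all germ against somatic cells. A gene was called at an adjusted p under 0.05, and for germ against somatic cells also a log2 fold change over 1. Unblocked p-values rest on the spread between 2 pools of pups, shared over the classes of a fit. Once libraries are blocked, the general difference between the pools is removed. Those p-values rest on how unevenly the classes differ in the 2 libraries, and do not measure the spread between pools. As edgeR shares the spread in part over genes, the unevenness of a single gene enters only in part. The block also fits the same library difference to every class of a fit. The classes of a library come from the same pups and droplet run, so the libraries pair them. Over 10572 genes, the deviations of a library correlated by 0.725 between Zp3-high and Zp3-low cells and by -0.0036 to 0.136 between the other classes, and the fit that blocks on library is given where it changes a call. On simulated counts the test was checked against known changes. These counts were drawn with a common spread and no difference between libraries. The check therefore does not cover the correlated deviations of a library. Its outcome is not given here and is not used as support for the p-values. Shares of cells carry exact (Clopper-Pearson) 95% intervals, which cover counting error only, and were taken after thinning cells to an equal number of UMIs. A share of 0 is given with the limit that 3 counts allow.

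All 9 genes are named in every comparison, up to 3 genes of each other list by the size of their change among those called, the 10 reference oocyte genes as a range, and the 5 genes most like the summed 9. Alternatives changed the test (DESeq2 1.42.0), scaling, filters, gate, doublets, thinning and class boundaries, added the block or left out a library. A further 4 were chosen after the data were seen: named somatic clusters only, Zp3-low below 100 CPM, cells of 50000 to 80000 UMIs, and RNA-poor cells with Zp3 below 500 CPM.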

Additional observations from a re-analysis of the deposited data

Results flagged for a closer look

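Transcripts of the 9 genes were also present in cells that the comparisons did not use. Among the barcodes removed by the filter on genes and mitochondrial counts, 18 and 35 met the germ cell gate, and they held 766 UMIs of the 9 genes in replicate 1 and 327 in replicate 2. In them, Ooep had 591 and 1380 CPM and Nlrp5 had 903 and 539 CPM. Among the likely doublets, 12 and 20 barcodes met the gate, with 5692 and 3654 UMIs of the 9 genes, and Ooep had 2156 and 2179 CPM and Zar1 had 41.8 and 33.8 CPM.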

How the results depend on the processing

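All 108 values of germ against somatic cells kept their direction, and all 8 genes were called under every alternative that gave a test. The share of all genes called under each alternative is not given here, so these calls are not read as a result about the 8 genes. Thinning to 2000 UMIs reduced the genes called higher among all tested from 4780 to 2805. For Zp3-high against Zp3-low cells all 144 values were above 0, 122 of them on the same side of the threshold, 4 no longer past it (Khdc3, Nlrp14, Npm2 and Zar1 at 50000 to 80000 UMIs) and 18 newly past it. The number of the 9 called higher was 4, against 7 without the filter on low counts, 9 with the replicate block and 0 at 50000 to 80000 UMIs, and it was between 4 and 6 in the other alternatives. Genes called higher among all tested numbered 63, against 127 by DESeq2, 41 with library sizes alone, 474 without the filter, 1325 with the block, 36 after thinning, 197 with Zp3-low below 100 CPM and 1 at 50000 to 80000 UMIs. Genes called lower numbered 6, against 30, 3, 166, 877, 2, 27 and 0 in the same order, and 3 without the cell filter, 3 with RNA-rich from 40000 UMIs and 2 with Zp3-high from 1000 CPM.

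Zp3-low against RNA-poor cells was the comparison in which directions changed with the settings. The number of the 9 called lower was 0, against 4 by DESeq2, 5 without the filter on low counts, 5 with the replicate block, 4 after thinning and 1 with Zp3-high from 250 CPM. Over all genes, higher and lower calls went from 0 and 0 to 44 and 104 by DESeq2, 307 and 575 without the filter, 397 and 514 with the block and 12 and 49 after thinning, and lower calls to 1 with doublets kept and 6 with Zp3-high from 250 CPM. Of 135 values, 98 were on the same side, 19 newly past the threshold and 18 reversed. Ooep, at 0.04, reversed to -0.04 with library sizes alone, -0.03 with the gate without Ooep, -0.38 after thinning, -0.14 and -0.18 with RNA-rich from 10000 and 40000 UMIs, -0.17 with Zp3-high from 250 CPM and -0.28 without replicate 1 (0.71 without replicate 2). Tle6, at 0.06, reversed to -0.01 by DESeq2, -0.01 with library sizes alone, -0.06 without the cell filter, -0.29 after thinning, -0.18 and -0.03 with RNA-rich from 10000 and 40000 UMIs, -0.05 with Zp3-high from 250 CPM and -0.19 without replicate 1 (0.27 without replicate 2). Nlrp5, at -0.13, reversed to 0.32 with RNA-poor cells below 500 CPM of Zp3 and 0.24 without replicate 2 (-0.42 without replicate 1), and Padi6, at -0.50, to 0.29 with RNA-poor cells below 500 CPM of Zp3. The cause was not tested.

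Leaving out either library leaves a single sample per class and no test. Over the lone libraries the log2 fold change of Zp3-high over Zp3-low cells ranged from 3.61 to 4.84 for Zar1, 2.60 to 2.95 for Npm2 and 0.32 to 0.48 for Nlrp5, and 6 of the 9 were over 2-fold in either library. In the fit of both libraries without the block, 627 of all 12784 genes were over 2-fold higher. The share over all genes in a lone library is not given here. The replicate block changed no call of the 9 genes other than those given. Its calls of the other gene lists for Zp3-low against RNA-poor cells are not given here. The mean share of cells with 5 or more of the genes, 35.7% of Zp3-low and 79.0% of Zp3-high cells at 2000 UMIs, was 6.4% and 44.9% at 1000 UMIs, 80.8% and 100% at 5000 UMIs and 98.8% and 100% unthinned; without one library it was 31.5% to 40.0% and 78.7% to 79.4%. Depth limits Zar1 most, with 9 UMIs in RNA-poor and 23 in Zp3-low cells of replicate 1.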
